A study of Mus musculus with 33 samples.

Results

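A set of 7 transcription factor genes that give regions of the embryonic forebrain their identity was followed in cultured mouse neural stem cells. They were Six3, Sp8, Dlx1 and Dlx2, which mark ventral or septal territory, and Emx2, Lhx2 and Pax6, which mark dorsal territory, 7 of the 26621 gene symbols in the count tables. The genes were selected on earlier results of these libraries, in which the difference between the genotypes before transcription was blocked was already in view. Values at that time are therefore given as a description, with no test. All 7 passed the low-count filter in the RNA-seq libraries, and 4 (Sp8, Emx2, Lhx2 and Pax6) passed it in both pull-down series.

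The cells came from the hippocampus of mice at postnatal day 0.5 and were grown with bFGF and EGF. Their genotype is labelled Nestin-WT or Nestin-cKO, a conditional loss of Ythdf2, which encodes a reader protein that binds m6A-marked RNA. The label names Nestin, a gene active in neural progenitors, and does not say which Cre line was used. RNA-seq covered 18 libraries, 3 per genotype at each of 0, 2 and 4 h in 5 µM actinomycin D, which stops new transcription. Untreated WT cells gave 3 libraries with an m6A antibody and 3 of the matching input, and in a separate series 3 with a YTHDF2 antibody, 3 with control IgG and 3 of input. Within a genotype, libraries with the same replicate number varied together across the 3 times, only weakly in WT, and are called a culture here. The labels do not say whether cultures came from separate animals, so p-values measure the spread between these libraries, which may be technical.

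The forebrain is divided early by transcription factors whose domains border on each other. Emx2, Lhx2 and Pax6 act in the dorsal wall, the source of cortex and hippocampus, where Lhx2 keeps cortical tissue from becoming midline tissue and Emx2 and Pax6 are graded in opposite directions. Dlx1 and Dlx2 direct ventral progenitors toward inhibitory neurons, Sp8 is found in the lateral ganglionic eminence and in the rostral patterning centre, and Six3 is required for the rostral forebrain and the eye and is later found in septum and ventral telencephalon.

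Total counts per library were 10257329 to 21353383 in RNA-seq, 12892222 to 28334300 in the m6A series and 8419106 to 23097887 in the YTHDF2 series. Ythdf2 went against the genotype label. At 0 h it stood at 219 to 258 normalized CPM (a gene's counts relative to the TMM-scaled size of its library, and hence a share, not an amount) in the libraries labelled WT and at 736 to 3117 in those labelled cKO, so genotypes are given as labelled throughout. Neural stem cell markers were present in both, with Sox2 at 68.1 to 78.1 CPM in WT and 61.9 to 102 in cKO and Nes at 34.7 to 45.0 and 32.9 to 46.9. Summed over the list of 15 such genes, the level was lower in cKO. It was 14482 to 16924 CPM in WT and 9364 to 12478 in cKO at 0 h, and 25832 to 29521 and 10673 to 15240 at 4 h. Markers of fibroblasts and meninges also moved with the genotype. Their summed level over 15 genes was 34.0 to 36.0 CPM in WT at 0 h and 109, 203 and 204 CPM in cKO-labelled cultures 1, 2 and 3, and 9 of 13 tested markers were higher and 0 lower in cKO (edgeR, adjusted p under 0.05). At 0 h 7.71% of all 14029 genes tested were higher in cKO, 9.89% were lower and 17.6% passed in either direction. A marker near 0 in WT can pass the low-count filter only through the cKO-labelled libraries, so a lower call was hardly open to it. The markers with the smallest p were Dcn (4.87 log2, edgeR adjusted p = 1.3e-05), Lum (5.75, edgeR adjusted p = 4.2e-05) and Col3a1 (4.19, edgeR adjusted p = 0.00839). Over the 3 times, Twist1 was at 0 in 7 of 9 WT and 2 of 9 cKO-labelled libraries, Foxc2 in 7 and 6, Slc6a13 and Aldh1a2 each in 6 and 0, and Col1a1 in 4 and 0, and Dcn, Lum, Prrx1, Foxc1 and Ogn were at 0 in none. The part of these cells in the results below was not tested. Of other marker lists at 0 h, 1 of 14 tested neural stem cell genes was higher and 3 lower, with Hes5 at −3.90 log2 (edgeR adjusted p = 3.9e-04), Prom1 at −2.87 (edgeR adjusted p = 2.5e-04) and Vim at 1.45 (edgeR adjusted p = 0.0200). Among oligodendrocyte genes 1 of 11 was higher and 5 lower, among astrocyte genes 0 of 8 and 4, among neuronal genes 2 of 10 and 2, and among choroid and ependymal (3 tested) and microglial and endothelial genes (2 tested) 0 passed by edgeR in either direction, none with an unadjusted p below 0.05. In such bulk libraries, fewer cells of a type and less RNA per cell cannot be told apart.

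The balance of the 2 gene groups differed between the genotypes and among the cKO-labelled cultures. On the length-corrected TPM scale, the order of mean levels in WT at 0 h was Pax6 at 18.6 ± 2.5 (SD, n = 3), Lhx2 at 7.84 ± 1.23, Emx2 at 5.51 ± 0.83, Sp8 at 1.39 ± 0.81, Six3 at 0.18 ± 0.13, Dlx2 at 0.073 ± 0.019 and Dlx1, listed at 0 in all 3 libraries. Down to Six3, the WT ranges of neighbours in this order did not overlap. In the cKO-labelled libraries the order was Sp8 at 35.4 ± 30.1 TPM, Six3 at 31.2 ± 29.8, Lhx2 at 14.0 ± 2.36, Emx2 at 11.6 ± 2.52, Pax6 at 7.76 ± 2.56, Dlx2 at 0.78 ± 0.81 and Dlx1 at 0.58 ± 0.56. Here neighbouring ranges overlapped at each step from Sp8 to Pax6, and the SD of Sp8 and Six3 was nearly as large as their mean.

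Six3, Sp8, Dlx1 and Dlx2 together made up 2.80%, 6.72% and 5.17% of the summed TPM of the 7 genes in the WT cultures at 0 h. They made up 20.3%, 80.6% and 66.7% in cKO-labelled cultures 1, 2 and 3, where Six3 and Sp8 alone made up 20.2%, 79.8% and 63.9%. The summed TPM of Emx2, Lhx2 and Pax6 lay between 29.0 and 33.5 in WT and between 31.2 and 36.0 in cKO at 0 h. Their sum was thus alike in size, with Pax6 lower and Emx2 and Lhx2 higher in cKO, while the sum of Six3, Sp8, Dlx1 and Dlx2 was not. At 4 h the share was 3.30% to 4.64% in WT and 5.42%, 49.1% and 39.9% in the cKO-labelled cultures. In the untreated WT cells of the pull-down series it was 1.03% to 2.31% in the m6A input and 2.06% to 5.04% in the YTHDF2 input. Culture 1 thus stood between WT and the other cKO-labelled cultures at 0 h, and less than 1 percentage point above the highest WT library at 4 h.

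**Figure D1:**
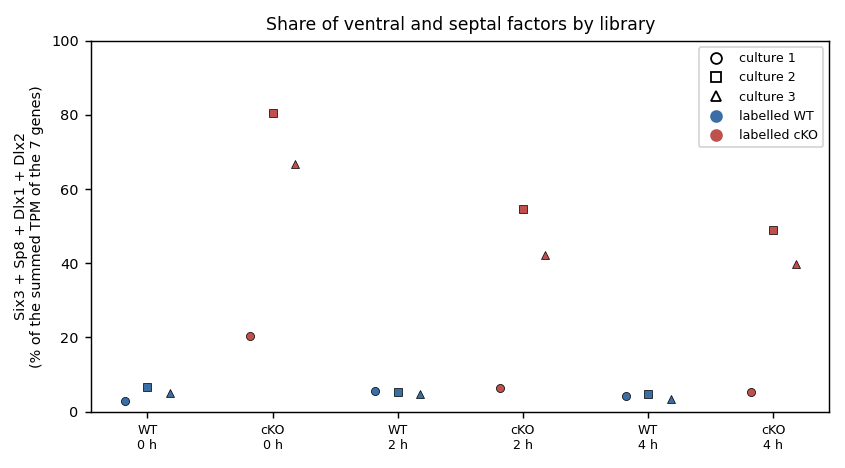
Share of Six3, Sp8, Dlx1 and Dlx2 in the summed TPM of the 7 genes (y axis, percent) in each of the 18 RNA-seq libraries, grouped by labelled genotype and time (x axis). Each point is 1 library and its shape is the culture. All WT libraries lie at or below 6.72%, and cKO-labelled cultures 2 and 3 lie between 39.9% and 80.6%.

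Six3 was near 0 in all WT libraries and in 1 of the 3 cKO-labelled cultures. At 0 h the WT cultures held 0.34, 0.084 and 0.59 normalized CPM, from 5, 1 and 10 reads. The cKO-labelled cultures 1, 2 and 3 held 0.66, 119 and 59.6 CPM, from 8, 1579 and 748 reads. Culture 1 stood just above the highest WT library and cultures 2 and 3 were far above it, so the fitted difference of 7.34 on the log2 scale (SE 1.74) is an average over unlike cultures. The same held at the later times, measured in other libraries of the same cultures. At 2 h WT held 1.05, 0.39 and 0.73 CPM and the cKO-labelled cultures 0.78, 66.7 and 41.1. At 4 h WT held 0.63, 0.95 and 0.65 CPM and the cKO-labelled cultures 1.03, 47.4 and 33.8. The groups overlapped at 2 h through culture 1, which at 4 h again stood just above the highest WT library.

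In the genotype comparison 3 of the 7 genes passed the test at 2 h and 3 at 4 h, all higher in cKO. Over all genes, 17.1% passed at 2 h and 20.2% at 4 h in either direction. The genes that passed were Six3, Sp8 and Emx2 at both times. These libraries come from the same cultures as those at 0 h, so the tests are not independent of the selection. Six3 had at most 18 reads in any WT RNA-seq library, which left little room for a lower value in cKO. Six3 differed by 5.59 log2 at 2 h (SE 1.56, edgeR adjusted p = 0.0233) and by 5.22 at 4 h (SE 1.57, edgeR adjusted p = 0.0280). Both calls ended without cKO-labelled culture 2 (edgeR adjusted p = 0.0859 at 2 h and 0.0848 at 4 h), and the 4 h call ended without culture 3 (edgeR adjusted p = 0.0619), with differences of 4.56 log2 or more. Without any single WT library of the time compared, the adjusted p of Six3 was 0.0735 to 0.0877 at 2 h and 0.0771 to 0.0992 at 4 h in the same edgeR test. On log2(TPM + 1), a scale that understates changes from near 0, the difference was 3.58 at 0 h, 2.83 at 2 h (limma adjusted p = 0.126) and 2.51 at 4 h (limma adjusted p = 0.177).

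**Figure D2:**
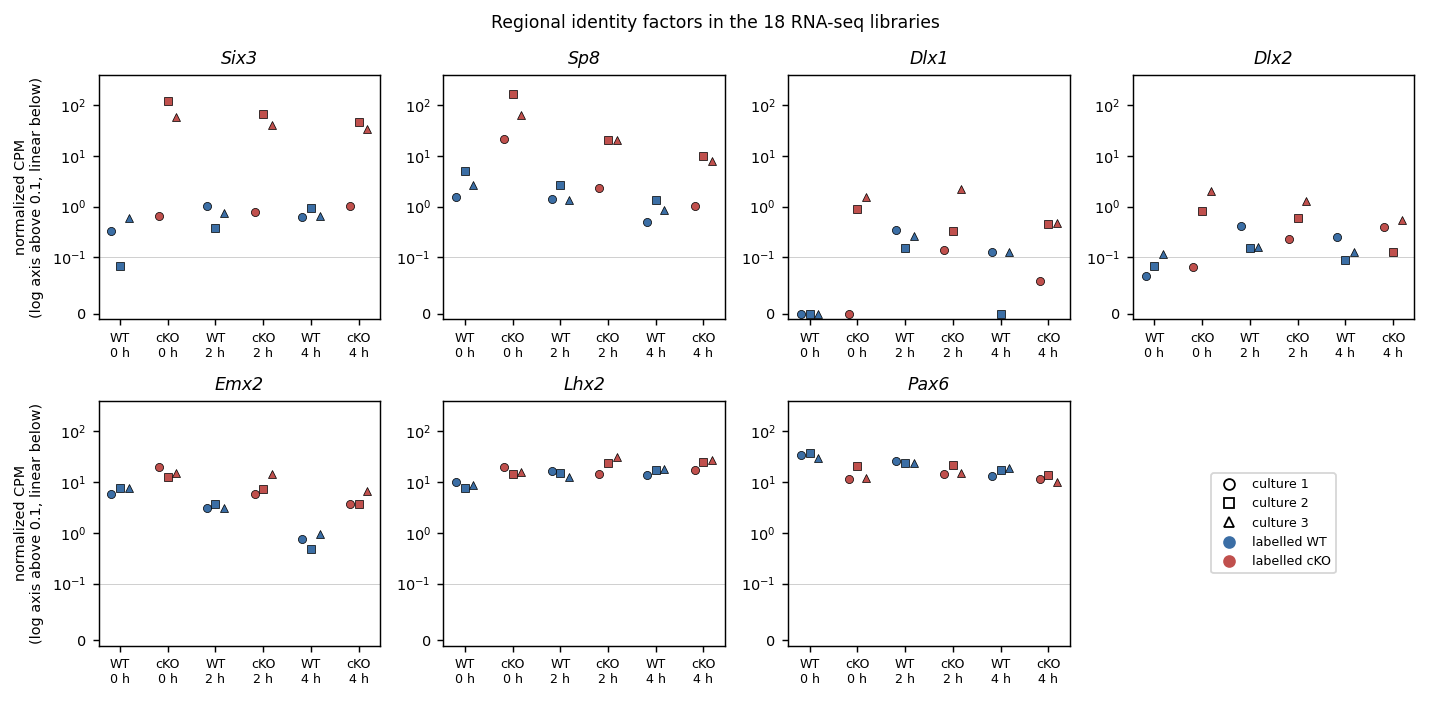
Normalized CPM of the 7 genes (y axis, logarithmic above 0.1 and linear below) in the 18 RNA-seq libraries by labelled genotype and time (x axis). Each point is 1 library and its shape is the culture. Six3 is at about 1 CPM or less in every WT library and in cKO-labelled culture 1, and at 33.8 to 119 CPM in cultures 2 and 3.

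The gene nearest to Six3 in pattern was its antisense neighbour Six3os1, a long noncoding RNA. Nearness was the root mean square difference of centred log2 CPM over the 18 libraries, and was 0.76 for Six3os1, 0.94 for Thbs2, which encodes a matrix glycoprotein, and 0.97 for Fndc3c1, against an SD of 3.11 for Six3 itself. Six3os1 stood at 0.20 to 0.67 CPM in the 9 WT libraries. In cKO-labelled culture 1 it was 0.33, 0.046 and 0.46 CPM at 0, 2 and 4 h, in culture 2 it was 59.7, 65.3 and 73.8, and in culture 3 it was 34.8, 33.5 and 38.7. It was thus present in the same cultures as Six3, in the same order. At 4 h of actinomycin D Six3 was at 40.0% and 56.7% of its 0 h level in cultures 2 and 3 and Six3os1 at 124% and 111%, a difference that was not tested. The gene spans of RefSeq overlap on chromosome 17, Six3 from 85613608 to 85626191 and Six3os1 from 85601932 to 85618396 (GRCm38.p6). The Six3 span includes a predicted transcript, and the overlap lies before the Six3 start whose promoter is shown next, from which the pair is read in opposite directions without overlap. The sources used here do not say whether counting used strand, so reads in the overlap of the spans cannot be assigned to one of the pair with certainty.

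The sequences before the starts of Six3 and Six3os1 are shown because both transcripts were high in the same cultures, and that of Emx2 because it passed the test at 2 and 4 h without this split. They are the 250 bases before the start on the gene's own strand (RefSeq, GRCm38.p6), with matches on either strand to CCAAT, TAAT and GGGCGG in capitals.
Six3, chr17:85620584-85620833, plus strand: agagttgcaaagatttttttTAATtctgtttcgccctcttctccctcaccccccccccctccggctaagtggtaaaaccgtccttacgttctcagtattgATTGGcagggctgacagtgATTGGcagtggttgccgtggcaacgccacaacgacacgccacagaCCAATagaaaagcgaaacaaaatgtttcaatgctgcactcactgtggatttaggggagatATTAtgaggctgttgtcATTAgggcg
Six3os1, chr17:85618397-85618646, minus strand: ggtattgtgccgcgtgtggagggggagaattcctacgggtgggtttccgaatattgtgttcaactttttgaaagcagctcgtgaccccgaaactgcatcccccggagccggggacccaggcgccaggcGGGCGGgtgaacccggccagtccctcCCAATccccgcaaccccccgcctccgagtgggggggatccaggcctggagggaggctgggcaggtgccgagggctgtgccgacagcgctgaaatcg
Emx2, chr19:59458440-59458689, plus strand: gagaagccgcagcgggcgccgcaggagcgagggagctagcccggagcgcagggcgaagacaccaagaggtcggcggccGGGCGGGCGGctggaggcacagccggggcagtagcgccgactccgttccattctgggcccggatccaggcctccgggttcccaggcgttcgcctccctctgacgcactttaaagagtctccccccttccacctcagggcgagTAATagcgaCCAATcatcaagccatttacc
The window of Six3 held 3 matches to CCAAT, 3 to TAAT and 0 to GGGCGG. That of Six3os1, whose start lies 2438 bases away, held 1, 0 and 1. That of Emx2 held 1, 1 and 2, and its 2 GGGCGG matches overlap. Of 32851 windows of the same length before RefSeq starts, 33.8% held CCAAT, 54.9% TAAT and 32.7% GGGCGG, so each motif is common in such windows. Bases G and C made up 48.8% of the Six3 window, 66.0% of that of Six3os1 and 67.2% of that of Emx2.

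Of the other regional genes, Otx2 was high in the same cultures as Six3. Otx2, a homeobox factor of fore- and midbrain and of choroid plexus, was at 0.058 to 0.26 CPM in the 9 WT libraries and at 0.25 in cKO-labelled culture 1 at 0 h, against 33.9 and 18.6 in cultures 2 and 3. It was higher in cKO at 0 h by 6.92 log2 (SE 1.46, edgeR adjusted p = 0.00567). At such WT levels it could hardly have come out lower. Zic4, a zinc finger factor of the dorsal midline, was at 0.83 to 3.91 CPM in WT, 0.66 in culture 1, and 6.91 and 4.22 in cultures 2 and 3, and it did not pass at 0 h (1.25 log2, SE 0.85, edgeR adjusted p = 0.305). Thbs2 and Fndc3c1 were named for their likeness to Six3 over these libraries, so their pattern is a description. Thbs2 was at 0.76 to 3.54 CPM in WT and at 1.82, 227 and 126 in cultures 1, 2 and 3, and Fndc3c1 was at 1.42 to 7.35 in WT and at 2.90, 421 and 140. At 4 h of actinomycin D Otx2 was at 13.8% and 17.2% of its 0 h level in cultures 2 and 3, below the values of Six3. Over the 3 cultures this change did not pass (−2.67 log2, edgeR adjusted p = 0.0650).

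**Figure D3:**
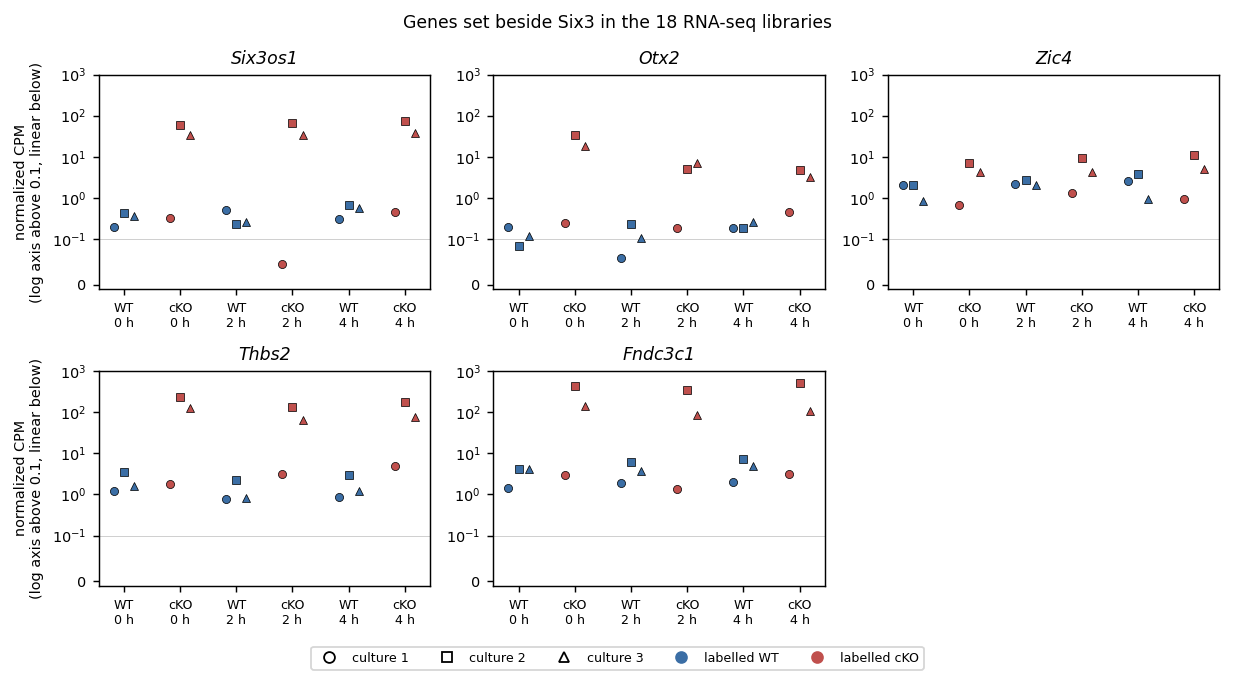
Normalized CPM (y axis, logarithmic above 0.1 and linear below) of Six3os1, Otx2, Zic4, Thbs2 and Fndc3c1 in the 18 RNA-seq libraries by labelled genotype and time (x axis). Each point is 1 library and its shape is the culture. cKO-labelled cultures 2 and 3 stand above culture 1 at every time, and Six3os1 is at 33.5 to 73.8 CPM in them.

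Sp8 was higher in all 3 cKO-labelled cultures at 0 h and, in those cultures, kept less of its 0 h level under actinomycin D than Six3, Emx2, Lhx2 or Pax6. At 0 h WT held 1.55, 5.06 and 2.67 CPM and the cKO-labelled cultures 21.4, 164 and 63.6, with no overlap and a fitted difference of 4.76 log2 (SE 0.90). At 2 h WT held 1.40, 2.71 and 1.36 CPM and the cKO-labelled cultures 2.34, 20.3 and 20.5. At 4 h WT held 0.50, 1.34 and 0.84 CPM and the cKO-labelled cultures 1.03, 10.1 and 8.05. Culture 1 was within the WT range at both later times and cultures 2 and 3 remained above it. The difference was 2.99 log2 at 2 h (SE 0.87, edgeR adjusted p = 0.0280) and 2.88 at 4 h (SE 0.95, edgeR adjusted p = 0.0412). Neither call held without culture 2 (2.64 log2 at 2 h and 2.38 at 4 h, edgeR adjusted p = 0.0824 and 0.117) or without culture 3 (2.66 and 2.68 log2, edgeR adjusted p = 0.0792 and 0.105), nor without any single WT library of that time (edgeR adjusted p = 0.0596 to 0.143) or on log2(TPM + 1) (1.64 and 1.10 log2, limma adjusted p = 0.0844 and 0.241).

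The genes nearest to Sp8 over the 18 libraries were Arl4c, a small GTPase (0.83), Foxc1, a forkhead factor of meninges (0.97), and Prrx1, a mesenchymal homeobox factor (1.01), against an SD of 2.25 for Sp8. Foxc1 and Prrx1 are on the list of fibroblast and meningeal markers. Foxc1 was at 1.82, 5.56 and 4.09 CPM in WT at 0 h and at 9.69, 21.7 and 19.8 in cKO-labelled cultures 1, 2 and 3, and Prrx1 at 28.9, 27.3 and 26.4 and at 76.8, 129 and 111. The summed level of that list was 43.9, 157 and 176 CPM in cultures 1, 2 and 3 at 2 h and 41.6, 119 and 173 at 4 h, against 15.3 to 21.0 and 13.9 to 17.0 in WT. Like Sp8 and Six3 it was lowest in culture 1 among the cKO-labelled cultures at every time, and its part in their levels was not tested.

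Dlx1 and Dlx2, adjacent genes of the inhibitory neuron programme, were represented by few reads. Dlx1 had 0, 0 and 0 reads in WT at 0 h and 0, 12 and 19 in cKO-labelled cultures 1, 2 and 3. Taking 3 reads over the 3 WT libraries as the limit that a count of 0 allows, the pooled cKO level of 0.82 CPM was at least 11.9-fold higher. Dlx2 had 1, 1 and 2 reads in WT and 1, 11 and 25 in cKO, a ratio of pooled CPM of 10.6. These 0 h values are descriptions of the libraries on which the genes were selected. Pooling the reads leaves out the spread between cultures. Culture 1 again stood with WT for both genes. Over all RNA-seq libraries Dlx1 reached at most 6 reads in WT and 29 in cKO, and Dlx2 at most 7 and 25. Neither passed the test at 2 h (Dlx1 1.69 log2, edgeR adjusted p = 0.308; Dlx2 1.47, adjusted p = 0.242) or at 4 h (1.73, adjusted p = 0.389; 1.09, adjusted p = 0.432). Without cKO-labelled culture 1 Dlx1 passed at 2 h (2.21 log2, edgeR adjusted p = 0.0498). That culture was left out after it was seen to stand with WT. At such WT counts both genes passed the low-count filter only through cKO-labelled libraries, so a lower call was hardly open to them. The Dlx1 call is therefore not read as a result.

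Emx2, the dorsal factor needed for hippocampal growth, was higher in cKO at each time. At 0 h WT held 5.73, 7.84 and 7.71 CPM and the cKO-labelled cultures 19.8, 12.5 and 14.8, a description of 1.15 log2 (SE 0.34). At 2 h WT held 3.15, 3.79 and 3.14 CPM and the cKO-labelled cultures 5.79, 7.24 and 14.2. At 4 h WT held 0.75, 0.48 and 0.97 CPM and the cKO-labelled cultures 3.66, 3.78 and 6.79. The groups did not overlap at any time, and culture 1, where Six3 was near 0, was the highest at 0 h. The difference was 1.43 log2 at 2 h (SE 0.35, edgeR adjusted p = 0.0121) and 2.65 at 4 h (SE 0.40, edgeR adjusted p = 4.7e-04). The 4 h call held in all 16 alternative fits (1.35 to 2.87 log2), and the 2 h call ended without cKO-labelled library 3, at 0.96 log2 (edgeR adjusted p = 0.0838), or WT library 1 or 3 of that time (edgeR adjusted p = 0.0540 and 0.0536).

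Emx2os, listed by RefSeq as an antisense RNA, has its span end at coordinate 59458635 on chromosome 19, 55 bases short of the Emx2 span (59458690 to 59465357, GRCm38.p6). It was higher in cKO by 1.51 log2 at 0 h (SE 0.40, edgeR adjusted p = 0.0193), by 0.93 at 2 h (SE 0.39, edgeR adjusted p = 0.104) and by 1.42 at 4 h (SE 0.40, edgeR adjusted p = 0.0204), of which the 2 h value did not pass. From 0 to 4 h Emx2os changed by 0.17 log2 in WT (SE 0.41, edgeR adjusted p = 0.778) and by 0.08 in cKO (SE 0.38, edgeR adjusted p = 0.905), and neither passed. Six3os1 and Emx2os were the only antisense genes of these factors with enough reads to test, of 4 found in the tables.

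Lhx2 had a higher mean in cKO at each time, and neither later difference passed. At 0 h WT held 10.2, 7.75 and 8.60 CPM and the cKO-labelled cultures 20.2, 14.2 and 15.6, a description of 0.91 log2 (SE 0.26) with no overlap. At 2 h WT held 16.2, 15.2 and 12.7 CPM and the cKO-labelled cultures 14.7, 23.9 and 31.1. At 4 h WT held 14.1, 17.0 and 18.6 CPM and the cKO-labelled cultures 17.2, 24.6 and 26.9. The groups overlapped at both later times through culture 1. The difference was 0.65 log2 at 2 h (95% interval 0.15 to 1.15, edgeR adjusted p = 0.0840) and 0.47 at 4 h (95% interval −0.03 to 0.97, edgeR adjusted p = 0.198). Without culture 1 both passed (0.89 and 0.64 log2, edgeR adjusted p = 0.00221 and 0.0166), and the 2 h difference passed when scaled by library size alone (0.85 log2, edgeR adjusted p = 0.0417).

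Pax6, which drives cortical neurogenesis, was the only one of the 7 with a lower level in cKO. At 0 h WT held 34.9, 37.0 and 29.6 CPM and the cKO-labelled cultures 11.6, 21.1 and 12.2, a description of −1.18 log2 (SE 0.24) with no overlap. At 2 h WT held 25.9, 24.1 and 24.1 CPM and the cKO-labelled cultures 14.6, 21.3 and 15.3. At 4 h WT held 13.3, 17.1 and 18.6 CPM and the cKO-labelled cultures 11.7, 13.8 and 9.97. The gap narrowed with time, and at 4 h the groups overlapped. The difference was −0.53 log2 at 2 h (95% interval −0.99 to −0.07, edgeR adjusted p = 0.123) and −0.47 at 4 h (95% interval −0.94 to −0.002, edgeR adjusted p = 0.168), and no alternative fit brought either past the threshold. Arid2, a subunit of a chromatin remodeller, was nearest to Pax6 in pattern (0.25, against an SD of 0.57 for Pax6), followed by Zw10 (0.28) and Apc (0.28). Fzd1, a Wnt receptor, was nearest to Emx2 (0.41, SD 1.40) and Snf8, a subunit of the endosomal sorting machinery, to Lhx2 (0.16, SD 0.53).

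Since actinomycin D blocks new transcription and CPM is a share of the library, a fall is a loss relative to the rest of the RNA, and a rise is a rise in share. Changes from 0 h use the libraries on which the genes were selected. Those from 2 to 4 h use other libraries of the same cultures, and earlier results of these data were known. They are thus not independent of the selection either. In WT 3 of the 7 genes passed the test from 0 to 4 h (39.9% of all genes), Emx2 and Pax6 lower and Lhx2 higher. Emx2 was at 13.1%, 6.09% and 12.6% of its 0 h level in the 3 WT cultures at 4 h, a change of −3.23 log2 (SE 0.40, edgeR adjusted p = 8.3e-06). Pax6 was at 38.1%, 46.2% and 63.0% (−1.05 log2, SE 0.24, edgeR adjusted p = 0.00206) and Lhx2 at 138%, 219% and 216% (0.90 log2, SE 0.26, edgeR adjusted p = 0.0109). Lhx2 did not pass when scaled by library size alone (0.56 log2, edgeR adjusted p = 0.134) or on log2(TPM + 1) (0.35, limma adjusted p = 0.281). Sp8 was at 32.4%, 26.4% and 31.5%, a change of −1.82 log2 (SE 0.97, edgeR adjusted p = 0.149) that passed when the culture was kept as a block (−1.75 log2, edgeR adjusted p = 0.00104) and with the 2 groups alone (−1.83 log2, edgeR adjusted p = 0.00669).

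In the cKO-labelled libraries 2 genes passed from 0 to 4 h (30.1% of all genes), Sp8 and Emx2, both lower. Sp8 was at 4.80%, 6.16% and 12.6% of its 0 h level in cultures 1, 2 and 3 at 4 h (−3.70 log2, SE 0.84, edgeR adjusted p = 0.00315). Emx2 was at 18.5%, 30.1% and 45.8% (−1.73 log2, SE 0.34, edgeR adjusted p = 0.00111), so each cKO-labelled culture kept more of it than any WT culture. Pax6 was at 101%, 65.2% and 81.8% (−0.34 log2, SE 0.24, edgeR adjusted p = 0.299; −0.60 on log2(TPM + 1), limma adjusted p = 0.0394) and Lhx2 at 85.0%, 173% and 172% (0.46 log2, SE 0.26, edgeR adjusted p = 0.191). Six3, which did not pass over the 3 cultures (−1.12 log2, SE 1.20, edgeR adjusted p = 0.516), fell with the culture as a block (−0.86 log2, edgeR adjusted p = 0.0194) and without culture 1 (−1.13 log2, edgeR adjusted p = 0.0270). Without culture 1 Lhx2 rose as well (0.79 log2, edgeR adjusted p = 0.0125).

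**Figure D4:**
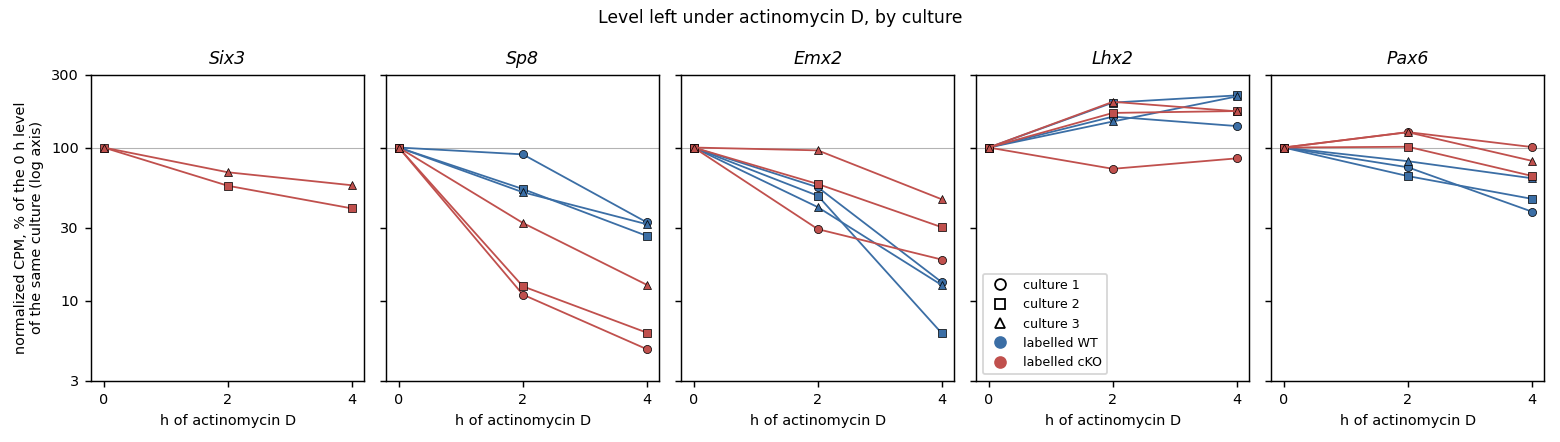
Normalized CPM as a percent of the 0 h level of the same culture (y axis, logarithmic) at 0, 2 and 4 h of actinomycin D (x axis) for Six3, Sp8, Emx2, Lhx2 and Pax6. Each line is 1 culture, coloured by labelled genotype, and Six3 is drawn only for cKO-labelled cultures 2 and 3, the others having 10 reads or fewer at 0 h. Sp8 ends at 4.80% to 12.6% in cKO and at 26.4% to 32.4% in WT, and Emx2 at 18.5% to 45.8% and 6.09% to 13.1%.

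On the log2 scale, Sp8 in cKO changed most in the first 2 h and Emx2 in WT most in the second. From 0 to 2 h 1 gene passed in WT (17.4% of all genes), Emx2 (−1.08 log2, SE 0.35, edgeR adjusted p = 0.0393). This did not pass with 1 library of the comparison left out, whichever it was (edgeR adjusted p = 0.0506 to 0.151), or without the low-count filter (edgeR adjusted p = 0.0607). With the culture as a block 4 passed, Emx2, Lhx2 (0.73 log2, edgeR adjusted p = 0.0332), Pax6 (−0.45 log2, edgeR adjusted p = 0.0459) and Dlx1, which had no read in WT at 0 h. In cKO from 0 to 2 h 1 gene passed (12.1% of all genes), Sp8 (−2.54 log2, SE 0.80, edgeR adjusted p = 0.0461), joined under the block by Emx2 (−0.90 log2, edgeR adjusted p = 0.0291). The Sp8 call ended without culture 2 (−1.92 log2, edgeR adjusted p = 0.284), with the 2 groups fitted alone (−2.53 log2, edgeR adjusted p = 0.182) and without 0 h library 2 or any single 2 h library (edgeR adjusted p = 0.0563 to 0.236). From 2 to 4 h 1 gene passed in WT (2.35% of all genes), again Emx2 (−2.15 log2, SE 0.40, edgeR adjusted p = 0.00907; 0.0635 and 0.0739 without 4 h library 1 or 2), and under the block also Pax6 (−0.60 log2, edgeR adjusted p = 0.0351). In cKO 0 passed (0.791% of all genes) by edgeR from 2 to 4 h, where Emx2 and Pax6 had an unadjusted p of 0.0137 and 0.0371, and 1 passed under the block, Sp8 (−1.17 log2, edgeR adjusted p = 0.0262).

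The rate of change over 0, 2 and 4 h was compared between the genotypes directly. None of the 7 passed in edgeR, where 0.00713% of all genes did, and Emx2 alone had an unadjusted p below 0.05. Its slope in cKO was less steep by 0.35 log2 per hour (SE 0.13, unadjusted p = 0.0174, edgeR adjusted p = 0.456). Sp8 differed by −0.48 log2 per hour (SE 0.30, edgeR adjusted p = 0.736) and Pax6 by 0.18 (SE 0.089, edgeR adjusted p = 0.614). At 4 h the cKO-labelled cultures kept less of Sp8 and more of Emx2 than any WT culture, while at 2 h cKO-labelled culture 1 kept less of Emx2 (29.3%) than the WT cultures (40.8% to 54.9%). Slopes and shares kept use the 0 h libraries on which the genes were selected. The share kept is a ratio to the 0 h value, so selection on that value and its spread enter the share. Their part was not tested.

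Beyond the 7 genes, other regional genes were called in either direction at 0 h, where 7.71% of all genes were higher and 9.89% lower. The small counts below are not read as a result about a list. Of 18 tested genes of ventral identity, 1 was higher in cKO and 2 lower, with a median of −0.28 log2 beside −0.01 over all genes. Meis1 (−1.23 log2, edgeR adjusted p = 0.00231) and Foxp2 (−1.40, edgeR adjusted p = 0.0451) were lower. Of 11 tested septal and rostral midline genes, 4 were higher and 1 lower, with a median of 1.11 log2. The FGF-responsive genes Spry1 (1.21 log2, edgeR adjusted p = 0.0153) and Etv4 (0.85, edgeR adjusted p = 0.0341) rose, and the hedgehog receptor Ptch1 fell (−1.83, edgeR adjusted p = 0.0321). Summed over the whole list without the 7 genes, ventral genes stood at 446 to 683 CPM in cKO and 733 to 804 in WT at 0 h. Septal and rostral midline genes stood at 168 to 215 CPM in cKO and 119 to 123 in WT.

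Of 24 tested genes of dorsal identity 3 were higher in cKO and 4 lower (7.71% and 9.89% of all genes), with a median of −0.16 log2. Gli3, which patterns the dorsal telencephalon, was higher (2.48 log2, edgeR adjusted p = 0.00136), as were Wnt7b (0.86, edgeR adjusted p = 0.0369) and Nfix (0.72, edgeR adjusted p = 0.0337). The neurogenic factor Neurod1 was lower (−2.94 log2, edgeR adjusted p = 0.00256), with Dmrta1 (−2.52, edgeR adjusted p = 0.0239) and Fgfr3 (−1.05, edgeR adjusted p = 0.00991). Neurod6, called lower as well, was at 1.10 to 5.04 CPM in WT and at or below 0.080 CPM in cKO. Of 7 tested genes of eye, diencephalon, midbrain and hindbrain, 2 were higher and 0 lower, Otx2 and Tcf7l2 (1.01 log2, edgeR adjusted p = 0.00341). Of 7 tested family members of the 7 genes, 0 were higher and 1 was lower, Sp1 (−0.80 log2, edgeR adjusted p = 0.0197). Neuronal markers summed to 189 to 222 CPM in WT and 69.1 to 96.1 in cKO at 0 h, beside these neurogenic genes, and their part was not tested.

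The pull-downs asked whether these transcripts carry m6A or are bound by YTHDF2 in WT cells. Six3, Dlx1 and Dlx2 had at most 4 reads in any of these 15 libraries, so neither could be measured for them. In the m6A series 0 of the 4 tested genes passed (20.3% of all genes) in edgeR, where Pax6 alone had an unadjusted p below 0.05. Pax6 was at 49.4, 53.4 and 51.3 CPM in input replicates 1, 2 and 3 and at 57.7, 60.0 and 59.9 in the pull-down, which was higher in all 3, by 0.20 log2 (SE 0.074, unadjusted p = 0.0222, edgeR adjusted p = 0.0852). Scaled by library size alone it passed at 0.42 log2 (edgeR adjusted p = 0.00319), and on log2(TPM + 1) at 0.66 (limma adjusted p = 2.9e-04). Emx2 was at 7.24, 8.51 and 7.27 CPM in input and 7.21, 9.35 and 8.91 in the pull-down (0.14 log2, SE 0.16, edgeR adjusted p = 0.602), and passed on log2(TPM + 1) at 0.54 (limma adjusted p = 0.0107). Lhx2 (−0.16 log2, SE 0.15, edgeR adjusted p = 0.508) and Sp8 (−0.42, SE 0.63, edgeR adjusted p = 0.697) did not pass either.

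Against the input, 1 of 4 genes passed in the YTHDF2 pull-down (48.1% of all genes), and 2 of 4 in the IgG control (37.1% of all genes). Pax6 was at 33.2, 31.1 and 39.0 CPM in input, 40.5, 49.0 and 57.3 with the YTHDF2 antibody and 42.7, 50.7 and 58.0 with IgG. It was higher than input by 0.51 log2 with YTHDF2 (SE 0.18, edgeR adjusted p = 0.0372) and by 0.55 with IgG (SE 0.18, edgeR adjusted p = 0.0333), so the control antibody gave slightly more Pax6 than the specific one in each replicate. The YTHDF2 call ended with RLE factors (0.33 log2, edgeR adjusted p = 0.142), with DESeq2 (0.33, adjusted p = 0.155), with the 2 groups alone (0.33, edgeR adjusted p = 0.151) and without input library 1 or 2 or YTHDF2 library 2 or 3 (edgeR adjusted p = 0.0785 to 0.147), and the IgG call ended without input library 1 or 2 or IgG library 2 or 3 (edgeR adjusted p = 0.0773 to 0.144). Lhx2 was at 15.4, 15.3 and 19.0 CPM in input, 11.9, 10.4 and 12.5 with IgG and 11.4, 13.9 and 11.4 with YTHDF2, and it was lower with IgG (−0.51 log2, SE 0.19, edgeR adjusted p = 0.0480). Leaving out any 1 library ended this call (edgeR adjusted p = 0.0630 to 0.150). With YTHDF2, Lhx2 differed from input by −0.43 log2 (SE 0.18, edgeR adjusted p = 0.0730), and passed with RLE factors (−0.60, edgeR adjusted p = 0.0193), with DESeq2 (−0.60, adjusted p = 0.00903) and with the 2 groups alone (−0.61, edgeR adjusted p = 0.0271). The RIP replicates varied together by number, and with the number as a block 4 of 4 genes passed over input, Sp8 (0.66 log2, edgeR adjusted p = 0.0249), Emx2 (0.40, edgeR adjusted p = 0.0330) and Lhx2 (−0.42, edgeR adjusted p = 0.0302) joining Pax6. Under the same block, IgG over input passed for Pax6 (0.54 log2, edgeR adjusted p = 9.97e-04) and Lhx2 (−0.51, edgeR adjusted p = 0.0139), not for Sp8 or Emx2. The share of all genes passing under the block was not taken, so this count is not read as a result about the 4 genes.

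Over IgG 0 of the 4 genes passed (14.6% of all genes) in edgeR, with Emx2 alone at an unadjusted p below 0.05. Emx2 was at 13.4, 11.8 and 11.5 CPM with IgG and at 15.6, 15.8 and 18.6 with YTHDF2, higher in all 3 pairs, by 0.44 log2 (SE 0.18, unadjusted p = 0.0322, edgeR adjusted p = 0.147). With the replicate number as a block it passed at 0.43 log2 (edgeR adjusted p = 0.0472), 1 of 4. Sp8 was at 4.25, 1.97 and 3.21 CPM with IgG and at 6.32, 3.34 and 3.73 with YTHDF2, again higher in each pair (0.51 log2, SE 0.42, edgeR adjusted p = 0.471). Pax6 differed by −0.04 log2 (95% interval −0.40 to 0.31) and Lhx2 by 0.08 (95% interval −0.28 to 0.45). Titles and descriptions of the samples swap input and YTHDF2 in this series, and the descriptions were followed. Under the titles Pax6 was lower with YTHDF2 than with input, by −0.51 log2.

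**Figure D5:**
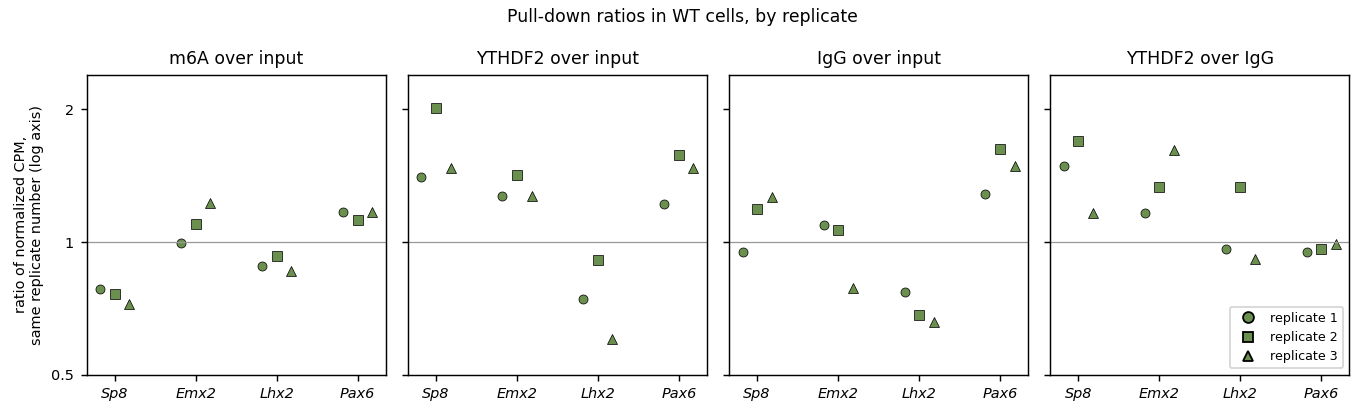
Ratio of normalized CPM between libraries of the same replicate number (y axis, logarithmic) for Sp8, Emx2, Lhx2 and Pax6 (x axis) in the m6A, YTHDF2 and IgG pull-downs of WT cells. Each point is 1 replicate and the line marks a ratio of 1. Pax6 lies at 1.22 to 1.57 for YTHDF2 over input, at 1.28 to 1.63 for IgG over input and at 0.95 to 0.99 for YTHDF2 over IgG.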

How the data were processed

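The submitters' processing notes name bcl2fastq (2.17.1.14), Trimmomatic (0.32), STAR (2.5.2a) and the build GRCm38. Counter, annotation and strand setting were not given in the sources used here. The deposited gene counts were whole numbers and entered every model. The deposited TPM values served to compare levels between genes and for 1 alternative. Per the labels, RNA-seq libraries followed SMART-seq2 and pull-down libraries a modified SMART-seq3.

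Quasi-likelihood tests of edgeR (4.0.16, in R 4.3.3) used TMM factors. One model per assay held all its groups and, after filterByExpr, 14029, 14167 and 14255 genes. Tests were two-sided, with Benjamini-Hochberg adjustment over all genes tested and a threshold of 0.05. Intervals are 1.96 SE. Members and lists were chosen with earlier results of these data known. Named genes were the 7, Ythdf2, up to 8 genes of each regional list with the smallest 0 h p, the antisense genes, up to 3 of each marker list and the 3 nearest in pattern to each of the 7 (mean log2 CPM of at least 1, prior count 2). Sox2, Nes and the markers given with zero counts fall outside this rule and were chosen after their values were seen. Some genes that the rule names are not reported here, while list counts and medians include them. The scripts were tested on simulated data.

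Numbers paired libraries within genotype, with residual correlations of 0.34 to 0.72 in cKO and 0.13 to 0.29 in WT, and in the YTHDF2 series (0.35 to 0.65). They did not pair libraries across genotypes (−0.15 to 0.07) or, for every pair, in the m6A series (0.07 to 0.43). The WT median of 0.18 was below that of the m6A series (0.34), so the pairing into cultures is less sure in WT. No near-identical libraries were found. For the YTHDF2 series, column names follow the sample descriptions. Alternatives were scaling by RLE or by library size alone, leaving out the low-count filter, DESeq2 1.42.0, limma 3.58.1 on log2(TPM + 1), a replicate block, only the 2 groups compared, each library left out, the names in the titles and, added after seeing the data, each cKO-labelled culture left out. The block was the culture for changes over time and their slopes, and the replicate number elsewhere.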

Additional observations from a re-analysis of the deposited data

Results flagged for a closer look

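From 0 to 2 h of actinomycin D all 3 WT cultures stood below their 0 h level of Pax6 and no cKO-labelled culture did. Pax6 was at 74.3%, 65.1% and 81.4% of the 0 h level in the WT cultures and at 126%, 101% and 126% in the cKO-labelled cultures. Neither change passed (−0.45 log2 in WT and 0.19 in cKO, edgeR adjusted p = 0.199 and 0.654). The difference between these changes was not tested at 2 h, and the 0 h libraries in it are those on which Pax6 was selected.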

How the results depend on the processing

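At 0 h 20 list genes other than the 7 were counted as called by the main analysis, 33 without cKO-labelled culture 1, 11 without culture 2 and 9 to 24 without single libraries. For the genotype comparison at 2 h the count of the 7 was 3, against 1 by limma on log2(TPM + 1), 5 without culture 1, 1 without culture 2 and 0 to 4 without single libraries. At 4 h it was 3, against 1 by limma, 1 without culture 2, 1 without culture 3 and 1 to 3 without single libraries. From 0 to 4 h in WT it was 3, against 2 with library size alone, 2 by limma, 4 with the replicate block, 4 with the 2 groups alone and 3 without single libraries. From 0 to 4 h in cKO it was 2, against 3 by limma, 3 with the block, 4 without culture 1 and 2 without single libraries. From 0 to 2 h in WT the count was 1, against 2 with RLE factors, 0 without the low-count filter, 3 by DESeq2, 2 by limma, 4 with the replicate block, 3 with the 2 groups alone and 0 without any single library. From 0 to 2 h in cKO it was 1, against 2 by limma, 2 with the block, 0 with the 2 groups alone, 2, 0 and 2 without cultures 1, 2 and 3, and 0 to 1 without single libraries. From 2 to 4 h in WT it was 1, against 2 by limma, 2 with the block, 2 with the 2 groups alone and 0 to 1 without single libraries, and in cKO it was 0, against 1 with the block. The slope difference gave 0 in every alternative run. For m6A over input the count was 0, against 1 with library size alone, 2 by limma and 1 with the block, in a series whose numbers do not pair every library. For YTHDF2 over input it was 1, against 2 with library size alone, 3 by limma, 4 with the block and 0 to 1 without single libraries. For YTHDF2 over IgG it was 0, against 1 with the block and 2 under the titles. For IgG over input it was 2, against 1 with library size alone, 1 without the low-count filter, 1 by limma, 1 with the 2 groups alone, 0 under the titles and 0 to 1 without single libraries. Pax6 in YTHDF2 over input reversed under the titles, to −0.51 log2. The cause of these changes was not tested. Shares of all genes passing were taken for the main analysis only, so the counts of the alternatives have no such share beside them.

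Leaving out a library leaves 2 in its group, so fewer samples enter those fits. The block changed the calls given beside the results, brought Pax6 in m6A over input past the threshold (0.20 log2, edgeR adjusted p = 0.0268) and changed no call of the 7 in the genotype comparisons at 2 and 4 h. In the genotype comparisons the block was the replicate number, which does not pair libraries across genotypes, so the unchanged calls gain nothing from it. Six3 in WT and Dlx1 and Dlx2 in all RNA-seq libraries rest on 29 reads or fewer each.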
